A study of Mus musculus with 4 samples.

Results

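The collagen genes were examined for Fos summits, the points of highest signal in the regions called from CUT&Tag of colonic epithelium. The set held every protein-coding gene of the mouse RefSeq gene table whose symbol reads Col, digits, a, digits, except Col17a1, which left 43 of the 21631 protein-coding genes outside chromosome Y. CUT&Tag uses an antibody, here against Fos, to bring the transposase Tn5 to the DNA that the protein occupies. The 4 wild-type libraries were 2 from colitis recovered mice and 2 from healthy controls, under 1 batch label. Recovered mice had drunk water with 1 to 1.5% DSS (dextran sodium sulfate, which damages the lining of the colon) in 3 cycles, each with 7 days on and 10 days off, and their tissue was taken 22 days after the last. Age, sex and strain are not given in the sources used here. Mucosa was scraped from the colon after EDTA, so cells other than epithelium may have been carried along.

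Collagens are the triple-helical proteins of the extracellular matrix. The fibrillar types I, III and V form the interstitial fibrils of connective tissue and are made mainly by fibroblasts, while type IV forms the sheet-like network of basement membranes on which epithelia rest. Type VII forms the anchoring fibrils below that sheet, and types XV and XVIII sit in or beside basement membranes. Fos is a subunit of AP-1, a family of leucine zipper transcription factors that responds to growth signals, stress and injury.

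All values came from 1 deposited list of MACS2 peaks (genome build mm10), with 178981 summits in 108406 regions and no value per library. Recovered and healthy colon could not be compared, no value below has a replicate error, and no test was made. The depth per library is not given in the sources used here. Fold is the authors' enrichment of a summit over background, and the number of overlapping fragments (pileup) was recovered from it. Intervals on pileups (exact Poisson) and on shares of genes (Wilson) are 95% intervals and cover counting error only. No control library was used here, so open chromatin cut without Fos was not measured. Summits were counted in 3 places: within 1 kb of either gene boundary, elsewhere inside the gene, and outside it within 50 kb. Of the marker lists, colonic epithelium had a boundary summit at 10 of 10 genes, fibroblast at 6 of 10, and smooth muscle, endothelium and leukocyte at 1 of 6 each, where the share over all protein-coding genes was 62%. The fibroblast share, 60%, was near it. Over whole windows the summits per gene ran from 37 to 98 in epithelium, from 0 to 49 in fibroblast, from 9 to 35 in smooth muscle, from 1 to 32 in endothelium and from 0 to 28 in leukocyte markers. Where there was one, the strongest boundary summit had a median fold of 95.7 in epithelium and 5.05 in fibroblast markers. Genes within a list differed: Lum and Ptprc had no summit in their windows. Fbln1, a fibroblast marker, had an interior fold of 90.0, and Itgam, a leukocyte marker, a boundary fold of 104. Epcam and Cdh1 had boundary folds of 68.8 and 70.5.

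The DNA before the start of transcription is shown first for 3 collagen genes with a called region over the start and then for 2 fibrillar ones without. Each is the stretch of 250 bases before the annotated start, from RefSeq in GRCm38.p6, 5′ to 3′ on the strand of the gene, with every CG dinucleotide in capitals. Col16a1 had the strongest summit at a start of any collagen, and Col8a2 and Col8a1 had weak ones. Col1a2 and Col3a1 had none.
Col16a1 (chr4:130047590-130047839, plus strand): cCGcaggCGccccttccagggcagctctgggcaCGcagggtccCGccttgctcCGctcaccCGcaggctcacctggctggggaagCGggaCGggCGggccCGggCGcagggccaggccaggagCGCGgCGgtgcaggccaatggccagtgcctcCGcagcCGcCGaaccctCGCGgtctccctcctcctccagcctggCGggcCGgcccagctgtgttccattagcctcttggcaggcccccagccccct
Col8a2 (chr4:126286544-126286793, plus strand): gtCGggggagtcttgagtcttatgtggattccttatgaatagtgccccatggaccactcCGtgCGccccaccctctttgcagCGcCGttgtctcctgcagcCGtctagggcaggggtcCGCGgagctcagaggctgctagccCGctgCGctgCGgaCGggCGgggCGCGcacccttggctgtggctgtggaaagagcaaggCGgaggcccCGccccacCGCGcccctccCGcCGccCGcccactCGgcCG
Col8a1 (chr16:57754738-57754987, minus strand): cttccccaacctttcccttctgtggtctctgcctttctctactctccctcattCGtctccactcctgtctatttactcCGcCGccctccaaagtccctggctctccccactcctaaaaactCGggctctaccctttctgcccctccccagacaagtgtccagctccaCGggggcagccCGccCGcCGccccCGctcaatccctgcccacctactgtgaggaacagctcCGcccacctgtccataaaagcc
Col1a2 (chr6:4505368-4505617, plus strand): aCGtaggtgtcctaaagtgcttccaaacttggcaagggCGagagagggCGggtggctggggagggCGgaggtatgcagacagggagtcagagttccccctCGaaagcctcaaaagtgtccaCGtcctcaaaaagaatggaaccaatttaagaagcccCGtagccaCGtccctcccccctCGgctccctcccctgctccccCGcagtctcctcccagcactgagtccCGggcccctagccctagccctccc
Col3a1 (chr1:45311288-45311537, plus strand): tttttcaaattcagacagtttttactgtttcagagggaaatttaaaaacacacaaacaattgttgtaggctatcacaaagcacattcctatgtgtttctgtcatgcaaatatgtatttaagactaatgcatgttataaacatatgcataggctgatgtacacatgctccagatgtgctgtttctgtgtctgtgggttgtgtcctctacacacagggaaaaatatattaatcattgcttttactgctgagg
The stretch held 21 CG pairs at Col16a1, 24 at Col8a2 and 10 at Col8a1, and 11 at Col1a2 and 0 at Col3a1. The fibrillar starts shown were not typical of types I, III and V. Col5a1 and Col5a3, of type V, also had an annotated start without a region. In windows that also took in 50 bases from the start on, they held 34 and 20 CG pairs. Col1a2 and Col3a1 held 13 and 0 in the same windows.

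Collagen gene boundaries seldom carried Fos. A summit within 1 kb of a boundary was present at 12 of the 43 genes (27.9%, interval 16.7 to 42.7), whereas it was present at 62% of all protein-coding genes. Where there was one it was mostly weak: the strongest boundary summit had a median fold of 3.97 over the 12 collagen genes and of 27.4 over the 13405 genes of the background. Only 2 of the 43, Col23a1 and Col16a1, had a boundary summit in the upper quartile of fold of all summits (15.4 or more), a level reached by 41.8% of all genes. At the threshold itself, the last summit inside lay 970 bp from Col9a3 with a fold of 3.13, and the first outside lay 1049 bp inside Col1a1 with a fold of 7.22.

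**Figure D1:**
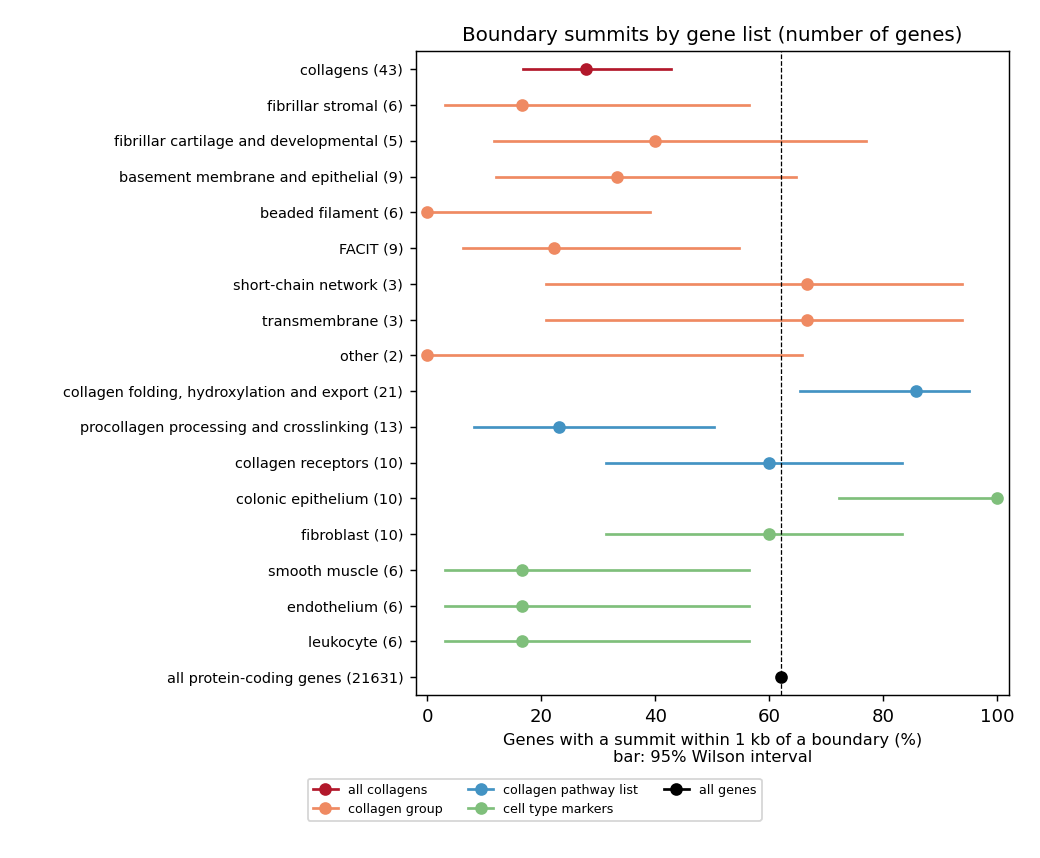
Percent of genes with a Fos summit within 1 kb of a gene boundary, for all 43 collagens, the collagen groups, lists of the collagen pathway, cell type markers and all 21631 protein-coding genes (dashed line); points are shares and bars 95% Wilson intervals. Collagens lie at 27.9% and the lists range from 0 in the beaded filament group to 100% in the epithelial markers.

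Starts alone gave the same picture. Annotated starts were found for 34 of the 43 genes, and 8 of the 34 (23.5%) had a summit within 1 kb of one, while 62.2% of the 17274 protein-coding genes with an annotated start did. These 8 were Col4a4, Col8a1, Col8a2, Col11a2, Col16a1, Col23a1, Col25a1 and Col27a1. The summit of Col16a1, a collagen that associates with fibrils, lay 6 bp after the start, where 96 fragments overlapped (interval 77.8 to 117) at a fold of 23.3. That of Col11a2, a cartilage fibril chain, lay 13 bp after the start at a fold of 6.01. The other 6 genes had start folds of at most 5.05. The high boundary value of Col23a1, a transmembrane collagen, was not at its start, which had a fold of 4.57. Its fold of 103 with 429 fragments (389 to 472) belonged to a summit 761 bp beyond the far end of the gene. That summit lay inside Phykpl, 32 bp from a boundary of that gene. Another boundary summit lay inside Col23a1, 891 bp from its far end and 1620 bp from Phykpl. It had a fold of 20.9 and 86 fragments (68.8 to 106). No start was annotated here for Col1a1, Col2a1, Col4a3, Col5a2, Col9a3, Col12a1, Col14a1, Col22a1 or Col26a1.

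Start windows of 300 bases, 250 before the start and 50 from it on, were overlapped by a called region at 7 of the 34 collagen genes and at 59.4% of the 17274 genes with such a window. Counting each annotated start, the collagens had 37 windows. The 7 with a region held a median of 23 CG dinucleotides (range 12 to 32) and the other 30 a median of 9.5 (0 to 37). In all 21045 windows of protein-coding genes the medians were 21 for the 12206 with a region over them and 4 for the 8839 without. CG-rich starts without a region were present among the collagens too: the windows of Col4a1, Col5a1 and Col4a2 held 37, 34 and 33. The AP-1 sequence TGANTCA was present in 1 collagen window, that of Col6a1, and in 7.04% of all windows. The related sequence TGACGTCA was present in 1, that of Col24a1, and in 2.26% of all windows. Each reads the same on both strands, and the 2 do not overlap one another. The 30 bases around each match are shown with the motif in capitals.
Col6a1 (chr10:76726116-76726145, minus strand): tgctgatgctgTGACTCActcagctttgag
Col24a1 (chr3:145292454-145292483, plus strand): tccgtgtttagTGACGTCAttgcaagtcag
Neither start had a summit within 1 kb. The nearest lay 7519 bp before the start of Col6a1 and 1835 bp after that of Col24a1, each with 10 fragments, the lowest pileup of the list.

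**Figure D2:**
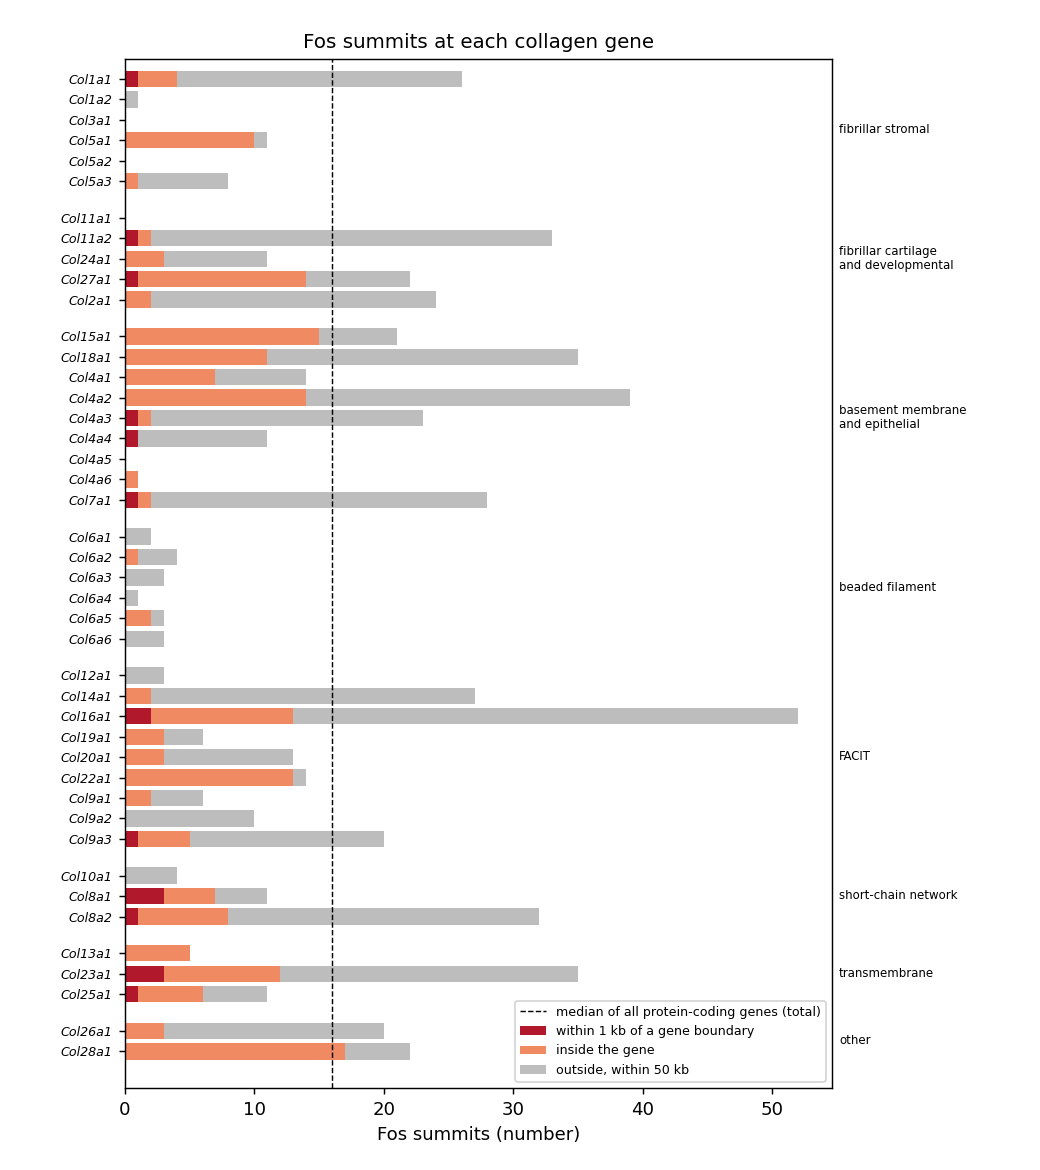
Number of Fos summits at each of the 43 collagen genes, stacked by position (within 1 kb of a boundary, elsewhere inside, outside within 50 kb) and arranged by collagen group; the dashed line is the median total of all protein-coding genes, 16. Totals run from 0 at Col3a1, Col5a2, Col11a1 and Col4a5 to 52 at Col16a1.

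Inside the collagen genes summits were sparse for the length of DNA they span. At least 1 lay inside 31 of the 43 genes, or 72.1%, near the 68.4% of all genes, and the median number was 2 in both sets. Collagen genes are long, however, with a median of 114 kb where all genes had 17.3 kb, and 33 of them were 31.7 kb or longer, as were 7211 of all genes. Per 100 kb of gene the median was 2.22 summits in collagens and 8.001 in all genes. Among these long genes, 24 of 33 collagens (72.7%) and 87.2% of all had a summit inside, and the median density was 1.88 in collagens and 6.94 in all. At their boundaries 7 of the 33 long collagens (21.2%) had a summit, as did 68.5% of all long genes. The summits inside collagens were also weaker, with a median fold of 4.33 over 186 summits, where the 103927 summits inside protein-coding genes had 6.49. These medians were not taken among long genes alone. An interior summit in the upper quartile of fold was present in 11 of 43 collagens (25.6%), near the 27.3% of all genes. Among long genes it was present in 11 of 33 collagens (33.3%) and in 49.3% of all.

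**Figure D3:**
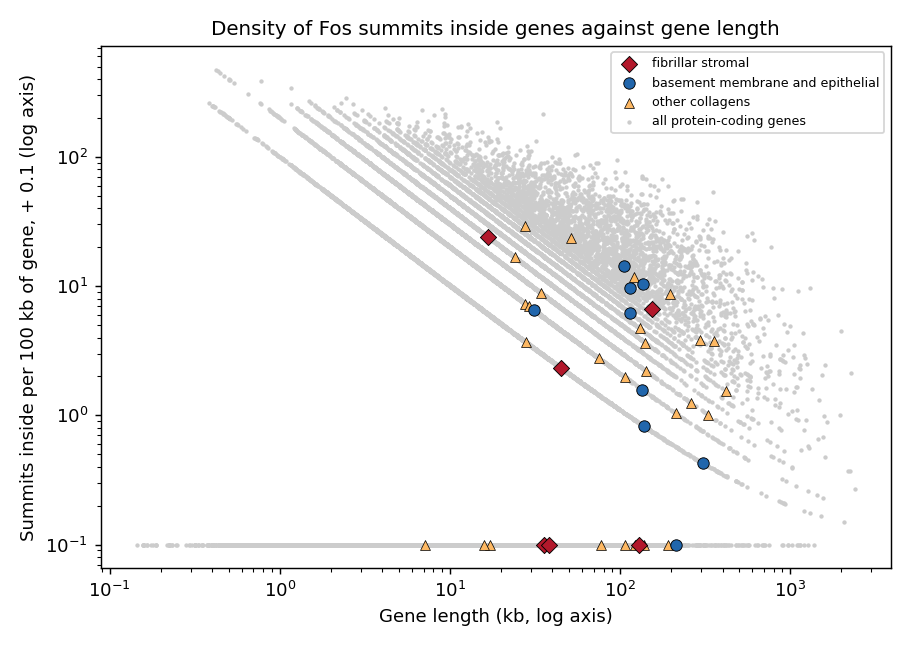
Summits inside the gene per 100 kb (log axis, with 0.1 added so that genes without a summit appear at the bottom) against gene length in kb (log axis) for fibrillar stromal, basement membrane and epithelial and other collagens and, in grey, all protein-coding genes. Most collagens lie among long genes, in the lower part of the grey cloud, with a median of 2.22 summits per 100 kb.

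Of the 6 fibrillar chains of stroma, 3 (50%) had a summit inside, Col1a1, Col5a1 and Col5a3. Only Col1a1 had one at a boundary (16.7%, interval 3.01 to 56.4). The shares over all protein-coding genes were 68.4% inside and 62% at a boundary. Col1a1, which encodes the main chain of type I collagen (chromosome 11, 94936224 to 94953042), had 4 summits inside, all within 3349 bp of its lower boundary, with folds of 3.61 to 7.22. At the boundary 28 fragments overlapped (18.6 to 40.5), a fold of 6.98. Col1a2, the partner chain of type I (chromosome 6, 4505618 to 4541543), had none inside and 1 in its window, 42242 bp away, with a fold of 14.7. The window of Col1a1 held 26 summits, of which 22 lay outside the gene. The strongest of these, with a fold of 76.7, was inside Ppp1r9b.

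Col3a1 and Col5a2, neighbours on chromosome 1 that encode chains of types III and V, had no summit inside either gene or within 50 kb. The next summit lay 713995 bp below Col3a1 on one side and 291954 bp above Col5a2 on the other, and the stretch between them, which holds both genes, was without a call. Col5a1, another type V chain (chromosome 2, 27886381 to 28039510), had the most of the 6 inside the gene. It had 10 summits there, with folds of 2.89 to 9.38, the nearest 2108 bp after its start, and 1 outside. Col5a3 had 1 inside, at a fold of 4.57, and 7 outside.

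Basement membrane and epithelial collagens had more summits per gene, with a median of 2 inside where the fibrillar stromal genes had 0.5. Most of them lay away from the boundaries. Summed over genes the densities inside were close, at 4.08 and 3.59 per 100 kb. Of the 9 genes 3 (33.3%) had a boundary summit, at folds of 2.89 to 3.85, where 62% of all protein-coding genes had one. Col4a1 and Col4a2, which encode the ubiquitous chains of type IV, start next to each other on chromosome 8 and are read in opposite directions. The summit nearest to these starts lay inside Col4a1 with a fold of 2.89, 16793 bp from the Col4a1 start and 16772 bp from that of Col4a2. Col4a2 (11312805 to 11449287) held 14 summits, and 3 of them were strong. The strongest, in the region from 11399726 to 11400870, lay 87748 bp after the start with a fold of 70.2 and 291 fragments (259 to 326). Those at 27777 and 33694 bp after the start had folds of 47.1 and 43.3. Col4a1 (11198423 to 11312889) held 7, led by a fold of 15.6 at 106293 bp after its start, 8110 bp from its far end.

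The other type IV chains differed from that pair. Col4a3 and Col4a4 (chromosome 1), whose chains join with that of Col4a5 in the basement membranes of kidney and some other tissues, shared 1 boundary summit at their common start, with a fold of 2.89 and 11 fragments (5.49 to 19.7). Inside, Col4a3 had 1 further summit (fold 4.09) and Col4a4 none. On chromosome X, Col4a5 had no summit in its window, and Col4a6 had 1, deep inside the gene with a fold of 7.94. Chromosome X was sparse as a whole, with a boundary summit at 34.4% of its 966 genes and an empty window at 42.3%. Empty windows were found at 4 of the 43 collagens (9.30%) and at 13.7% of all genes. All 4 were long genes, so the share was 12.1% among the 33 long collagens and 6.05% among all long genes.

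Col15a1, the type XV chain (chromosome 4, 47207655 to 47313167), had 15 summits inside, the most of the basement membrane group, and none at its boundaries. All 15 lay in the part of the gene beyond 43261 bp after the start. Its strongest, 86081 bp after the start, reached a fold of 31.3 with 129 fragments (108 to 153), and others reached 20.2 and 19.2. Col18a1, whose type XVIII chain is the source of endostatin (chromosome 10, 77052178 to 77166530), had 11 inside with folds of 2.65 to 9.14. One of these, with a fold of 5.05, lay 1736 bp after the inner of its 2 annotated starts. Col7a1, the anchoring fibril chain that epithelial cells make in skin (chromosome 9, 108953586 to 108984875), had only 2, with folds of 5.53 inside and 3.85 at 716 bp from its far end. The strong summits beside Col7a1, with folds of 117 and 116, lay 3028 and 6887 bp beyond the gene, but 369 bp from and inside Pfkfb4. Col17a1, the hemidesmosomal collagen that the rule leaves out, had 7 summits inside, with a boundary fold of 3.61 and an interior fold of 7.70.

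**Figure D4:**
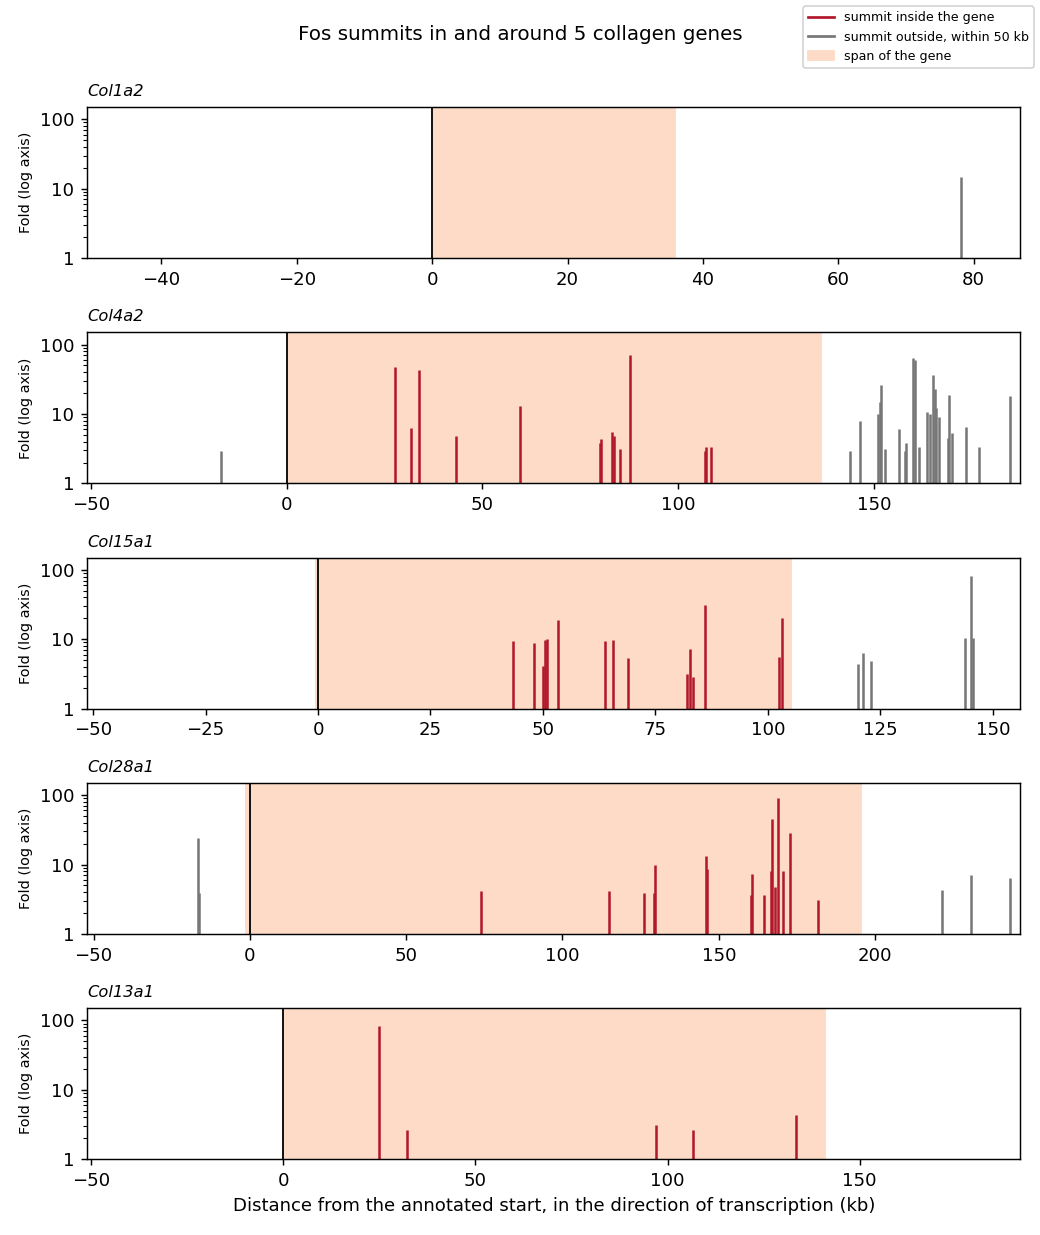
Fos summits at Col1a2, Col4a2, Col15a1, Col28a1 and Col13a1 by distance from the annotated start in kb, in the direction of transcription; the height of each line is the fold (log axis), shading is the span of the gene, red lines are summits inside and grey lines outside. None of the 5 has a summit within 1 kb of the start, at 0. Inside the genes the highest fold is 70.2 in Col4a2, 31.3 in Col15a1, 90.4 in Col28a1 and 83.9 in Col13a1, and Col1a2 has none.

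Set side by side, fibrillar stromal collagens had a median of 4.5 summits in the window (range 0 to 26, 6 genes) and basement membrane and epithelial collagens 21 (0 to 39, 9 genes), a difference of −16.5. The groups overlapped over most of their range. When each summit was counted only for its nearest gene, the medians were 1 and 2, a difference of −1. Inside the gene the medians were 0.5 in the fibrillar and 2 in the basement membrane group, and per 100 kb 1.11 and 6.12. Summed over the genes of each group the densities came closer, at 3.59 per 100 kb in fibrillar and 4.08 in basement membrane genes. An interior summit in the upper quartile of fold was present in 0 of 6 fibrillar stromal genes. It was present in 3 of 9 basement membrane genes (33.3%), Col4a1, Col4a2 and Col15a1. Col4a1 passed narrowly, with a fold of 15.6 at a threshold of 15.4. The share was 27.3% over all genes and 49.3% over all long genes. Basement membrane genes had a longer median length than fibrillar stromal genes, and the groups were not compared at equal length. Whether the differences in this share and in the window counts go beyond gene length was not tested. The boundary share was 16.7% in fibrillar and 33.3% in basement membrane genes, which is 1 gene and 3. Both shares lay below the 62% of all protein-coding genes. Col4a3 and Col4a4, which are among the 3, were counted through 1 shared summit. With −log10 q of at least 5 the counts at boundaries were 1 gene and 0, a difference of 16.7 percentage points in the other direction. With the 11 fibrillar chains of both groups set against the 6 type IV chains, the medians were 2 and 1.5 inside, the other direction, and 11 and 12.5 in the window. Neighbouring members share summits and windows, so the genes of a group are not independent.

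The remaining fibrillar chains, of cartilage and development, were mixed. Col11a1 had an empty window, with the next summit 399638 bp away. Col11a2 had 2 summits inside and 31 outside in the crowded histocompatibility region of chromosome 17. Col2a1, the main collagen of cartilage, had 2 inside with folds of 3.37 and 4.33. Col27a1 had 14 inside, the highest with a fold of 17.8.

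Type VI collagens, which form beaded filaments around cells in most connective tissues, had the fewest summits. None of the 6 genes had a boundary summit, and 4 of them had none inside. Of all protein-coding genes, 62% had a boundary summit and 68.4% had one inside. Their windows held 1 to 4 summits each. Col6a2 had the most, 4, of which 1 lay inside with a fold of 2.65, the lowest of the list. Col6a5 had 2 inside, at folds of 2.65 and 4.33, and a summit with a fold of 19.2 lay 6714 bp beyond it, between Col6a5 and Col6a4. Col6a3 and Col6a6 had 3 each, all outside.

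**Figure D5:**
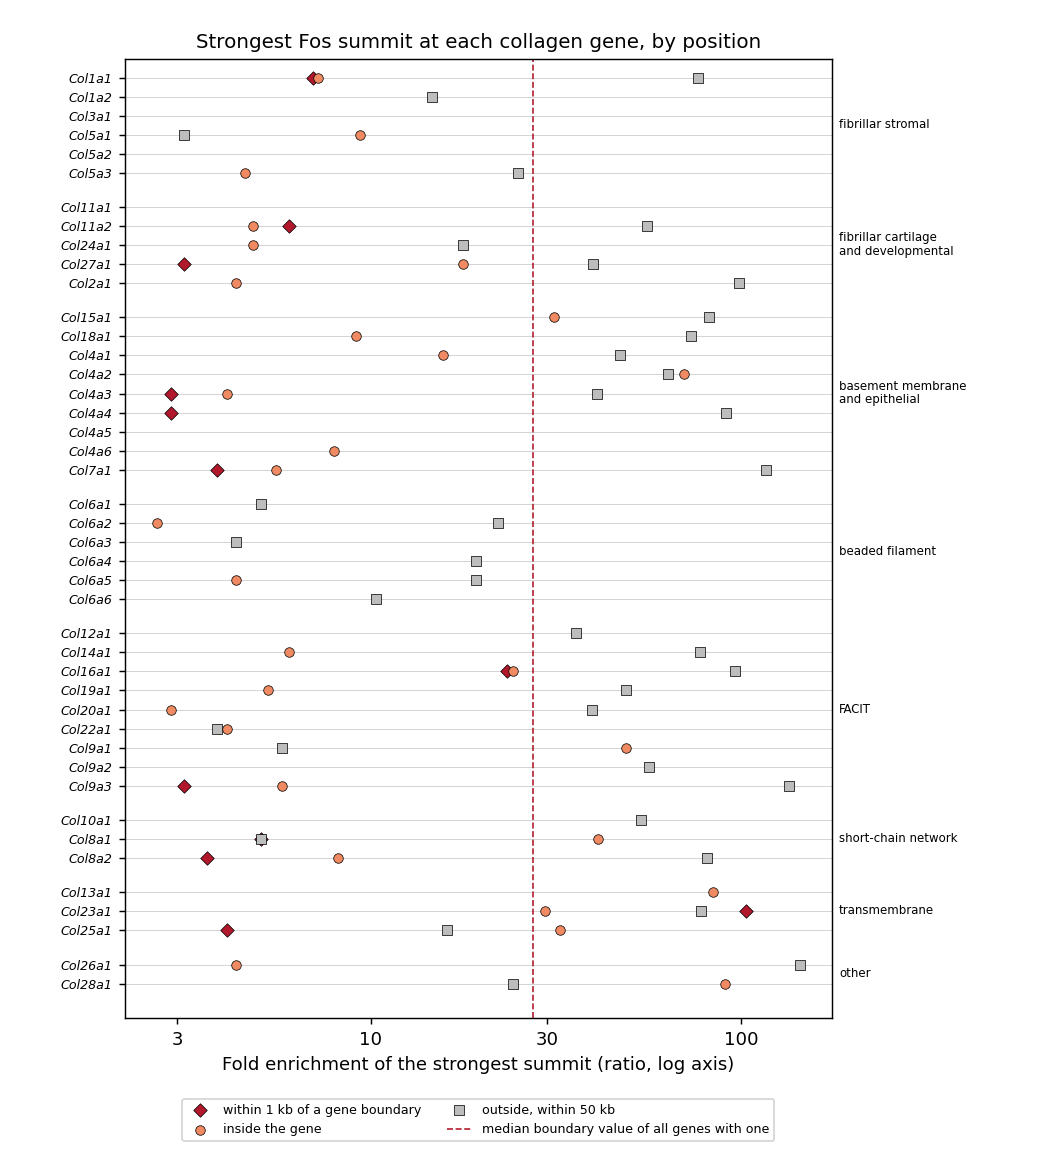
Fold of the strongest summit (log axis) within 1 kb of a boundary (diamonds), elsewhere inside (circles) and outside within 50 kb (squares) for each collagen gene; the dashed line is the median strongest boundary fold of all genes with one, 27.4. Diamonds are few and, apart from Col23a1 at 103, lie left of the line, while squares reach 144 at Col26a1.

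Single strong sites lay inside several collagens of other classes. Col28a1, a collagen with von Willebrand domains (chromosome 6, 7997100 to 8193709), had 17 summits inside, the most of any member. Its strongest, in the region from 8023299 to 8024649, reached 375 overlapping fragments (338 to 415) and a fold of 90.4, followed by folds of 45.5 and 28.9. These 3 lay 168804, 167002 and 172639 bp after the start. Col13a1, a transmembrane collagen of cell adhesion sites, had 5 summits, and 1 of them, in the region from 61953551 to 61954921 on chromosome 10, 24889 bp after the start, had a fold of 83.9 and 348 fragments (312 to 387). The other 4 had folds of at most 4.33, and no summit lay outside it within 50 kb.

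Col8a1, a short-chain collagen of vessels and of the cornea, had an interior fold of 41.1 at 68454 bp after the start, with boundary folds of at most 5.05. Col25a1 and Col23a1, both transmembrane, had interior folds of 32.5 and 29.6. Col8a2 had 8 summits inside, up to a fold of 8.18, and Col10a1, of growth plate cartilage, had none. Among the collagens that associate with fibrils, Col16a1 had 12 summits inside, with folds of up to 24.3, and 40 outside. Col14a1 had 2 and Col9a3 had 4 inside, none above a fold of 6.01. Col9a1, named because of its value, had a fold of 49.1 at 41408 bp after the nearer of its starts. Col26a1 had 3 inside, up to a fold of 4.33.

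Most summits around the collagens were nearer to other genes. The windows of the 43 genes held 601 distinct summits, of which 186 lay inside a collagen and 415 outside all of them. Of the 415, a collagen was the nearest protein-coding gene for 48 (11.6%), 195 (47.0%) lay inside another protein-coding gene, and 108 (26.0%) lay within 1 kb of a boundary of another. The same shares were not counted for the windows of all genes, so whether collagens differ in them was not tested. The median window count was 11 in collagens and 16 in all genes. With each summit counted only for its nearest gene the medians were 3 and 4.

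The genes that act on collagens after translation were not alike. Of 21 genes of folding, hydroxylation and export, 18 had a boundary summit (85.7%, interval 65.4 to 95.02), where all protein-coding genes gave 62%, and the median window count was 24. Colgalt1, which adds galactose to collagen, had 48 in its window and an interior fold of 105, P4hb, a subunit of prolyl hydroxylase, had 45 and a boundary fold of 124, and Plod3, a lysyl hydroxylase, had 41 and 46.7. Serpinh1, P3h2 and Plod2 had no boundary summit. Of 13 genes of procollagen processing and crosslinking only 3 had one (23.1%, 8.18 to 50.3), namely Loxl3, Bmp1 and Loxl4, with folds of 6.73, 10.3 and 6.01. Loxl3, a lysyl oxidase, had 52 summits in its window, Bmp1, which cleaves the carboxyl propeptide, 33, and Pcolce, which enhances that cleavage, 28. Of 10 collagen receptors 6 had a boundary summit (60%), near the share of all genes. Itga2, a collagen-binding integrin subunit, had 29 summits inside with a fold of up to 64.7. Ddr1, a receptor tyrosine kinase of epithelia, had 10 inside with a fold of up to 78.4. Itga10 had 1 inside and a boundary fold of 16.6, and Itga1 had 7 inside and a boundary fold of 20.9. Ddr2, a relative of Ddr1, had no boundary summit and 1 inside, with a fold of 6.73.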

How the data were processed

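Fos CUT&Tag libraries were made from scraped colonic mucosa of 2 colitis recovered mice and 2 healthy controls, whose separate origin is given only through replicate labels. The submitters' processing notes name Bowtie2, MACS2 and the build mm10 without versions or commands. How libraries were combined in the list is not given in the sources used here. In the deposited list, fold enrichment is a linear ratio by the authors, the score is the integer part of 10 times −log10 q, and −log10 q itself (q-value of the caller) was at least 1.80.

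Every fold was a whole multiple of 0.241 within 0.05 steps, as (pileup + 1) over (background + 1) gives for a background of 3.16 fragments, and pileups were read from this. Summits (column start plus offset) were counted, 1-based, against RefSeq genes of GRCm38.p6, the assembly named mm10, with Python 3.11.15, numpy 2.4.6, pandas 2.3.3 and scipy 1.17.1. The table gives gene spans without exons, so exons and introns were not told apart. Strand and start came from the RefSeq promoter table, which matched 34 members. A gene list was described by counts and medians beside all genes, since 1 list without values per library allows no test. Counting was tested on simulated summits.

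Members, groups and lists were chosen with earlier results of these data known. Named were all fibrillar stromal and basement membrane members, the 3 members of each other group and the 3 genes of each pathway list with most summits in the window. Serpinh1, P3h2, Plod2, Loxl4, Ddr2, Itga1, Col9a1, Col11a1, and marker genes were named after their values were seen, as were the genes at starts or with motifs. Alternatives were stricter −log10 q, 1 summit per region, no regions above 3000 bp, other boundary and window sizes, gene length, nearest gene, other groupings, and no chromosome X.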

Additional observations from a re-analysis of the deposited data

How the results depend on the processing

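The gap between collagens and all genes in boundary share, −34.1 percentage points, kept its sign and stayed within 1.5 times in every alternative run. Results that moved further or turned round are given here, and the cause was not tested except where fewer summits or genes are counted by construction. For fibrillar stromal minus basement membrane collagens, the boundary difference was 16.7 points in place of −16.7 with −log10 q of at least 5 and also of at least 10, was −33.3 with 1 summit per region and without Col1a1, 0 with boundaries of 2000 bp, −26.2 without chromosome X and −6.06 with type IV against all fibrillar chains. The window difference, −16.5, was −8.5 with 1 summit per region, −9.5 without regions above 3000 bp, −5.5 with 20 kb windows, −1 for the nearest gene and −1.5 with type IV against all fibrillar chains. The inside difference, −1.5, was −0.5 with −log10 q of at least 5, −5.01 per 100 kb, −6.5 without chromosome X, −5.5 without 1 gene of each neighbouring pair, and 0.5 with type IV against all fibrillar chains. The ratio of medians of collagens to all genes inside the gene, 1, was 0 with −log10 q of at least 10, 2 with 1 summit per region, 0.277 per 100 kb and 0.6 among genes of 31.7 kb or more, and in the window, 0.688, it was 0.444 with −log10 q of at least 10. The other 38 of 60 values stayed within 1.5 times. Leaving out Col1a1 or 1 gene of each pair was chosen after seeing the data. Summits under 10 fragments were not called, and an empty window means none detectable at this depth. No paired analysis was possible because the list has no values per library, and no library was left out in turn for the same reason.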

Other observations

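Strong sites also lay in intergenic DNA beside collagen genes with 2 or 3 weak summits inside, none above a fold of 6.01. Below Col2a1 on chromosome 15, the region from 97942575 to 97946927, 4353 bp wide, reached a fold of 99.1 at 29687 bp from Col2a1 and 17262 bp from Tmem106c, and that from 97925102 to 97930123 reached 87.3 at 18949 bp from Vdr, the vitamin D receptor gene. Below Col14a1, the region from 55263043 to 55266706 on chromosome 15 reached 77.5 at 42086 bp from Col14a1 and 6285 bp from Deptor, an inhibitor of mTOR. Above Col26a1, the region from 136922643 to 136924882 on chromosome 5 reached 144, the highest fold in the window of any collagen, at 40619 bp from Col26a1 and 9486 bp from Ift22. The gene to which such a site belongs was not tested.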
